A study of Mus musculus with 6 samples.

Results

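The genes of glycolysis and of the pentose phosphate pathway were followed in platelet RNA from bone marrow transplantation (BMT) control mice and from mice in the pre-leukemic phase of an acute myeloid leukemia (pre-AML). The gene set was a list of 32 names covering glucose and lactate transport, glycolysis and the pentose phosphate pathway. Of these, 31 had a row in the table of 14975 genes, and Eno2 was not analysed here. A mean of at least 1 FPKM (fragments per kilobase of exon, scaled to sequencing depth) over the 6 libraries was required for a test, and 20 of the 31 genes passed it, beside 4412 genes of the whole table. The other 11 genes are given by their values only.

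Both groups were young adult female mice that had been irradiated and transplanted. The strain label was C57BL/6 in all 6 libraries. Pre-AML mice (genotype label AML) carried hematopoietic progenitors transformed by retroviral MLL-AF9 and passed through a previous host, and controls (genotype label WT) had received normal bone marrow cells, so irradiation and transplantation were common to both groups. Blood was taken 1 week after transplantation, and platelets were enriched by a density gradient and by magnetic depletion of CD45+ and Ter119+ cells. The oncogene was carried by a retroviral construct in the transplanted cells, and the sources used here do not separate host from donor platelets. Each group had 3 libraries, although the series text speaks of 2 replicates and of pooled mice, so the p-values below measure the spread between these libraries only.

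Glycolysis splits glucose into pyruvate and yields ATP without oxygen. Glucose enters through facilitative transporters and is trapped by hexokinase, phosphofructokinase commits it to the pathway, and lactate dehydrogenase regenerates NAD+ by turning pyruvate into lactate. The pentose phosphate pathway branches off at glucose 6-phosphate, makes NADPH in its oxidative arm and exchanges sugar phosphates with glycolysis in its non-oxidative arm. Platelets have no nucleus, keep few mitochondria and raise both glucose uptake and lactate output when they are activated, and GLUT3, encoded by Slc2a3, is their main glucose transporter.

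Many glycolytic genes carry the core of the hypoxia response element near their start, so the promoters of the members were read for its form ACGTG. The RefSeq windows cover 300 bases around a gene's start on GRCm38.p6, most of them upstream, and 43 windows matched 30 of the 31 genes by symbol (not Slc2a3). A window of Ldha and the window of Pgk1 are shown because both genes encode textbook targets of hypoxia-inducible factors. Both were among the genes with lower mean FPKM in pre-AML libraries, so they were picked after their values were seen. Capitals mark ACGTG on either strand, read as ACGTG or CACGT, and CACGTG counts as a core on each strand. The form GCGTG was not searched or marked, so a core means ACGTG only in the counts below.
Ldha, chr7:46845554-46845853, + strand: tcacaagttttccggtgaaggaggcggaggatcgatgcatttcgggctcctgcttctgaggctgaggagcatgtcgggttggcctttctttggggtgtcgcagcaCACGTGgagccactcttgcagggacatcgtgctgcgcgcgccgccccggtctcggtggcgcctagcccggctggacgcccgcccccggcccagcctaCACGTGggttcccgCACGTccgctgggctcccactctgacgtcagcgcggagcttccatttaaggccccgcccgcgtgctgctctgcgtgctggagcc
Pgk1, chrX:106186850-106187149, + strand: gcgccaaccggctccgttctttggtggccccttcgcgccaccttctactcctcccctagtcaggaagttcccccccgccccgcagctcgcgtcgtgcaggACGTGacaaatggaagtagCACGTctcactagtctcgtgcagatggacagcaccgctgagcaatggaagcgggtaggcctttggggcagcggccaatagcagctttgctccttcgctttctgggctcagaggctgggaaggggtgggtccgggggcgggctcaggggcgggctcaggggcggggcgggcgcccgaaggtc
The Ldha window shown held 5 cores and the Pgk1 window held 2. Another Ldha window (chr7:46846832-46847131) held 0. A core was present in 19 of the 43 member windows (44.2%), which belonged to 16 genes. The same letters were found in 1177 of 4532 windows of the genes tested (26.0%) and in 6447 of all 32851 windows (19.6%). These are matches of letters only. Tested members with a core in a window had log2 fold changes of both signs, from -0.68 (Pgam1) to 0.15 (Pkm).

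Between 11936148 and 17779199 reads per library could be recovered from the FPKM values. Pre-AML 3 stood apart from the other 5 libraries. It lay at 41.9 on the first principal component, which held 70.2% of the variance, against -12.7 to -2.12 for the others, and its FPKM values summed to 376148 against 508605 to 541784. Cell type markers were read beside it. The 12 platelet markers summed to 61821 FPKM in pre-AML 3, 91425 in pre-AML 1, 92838 in pre-AML 2 and 90382 to 114410 in controls. This and the following marker sums are on deposited FPKM, whose total was lowest in pre-AML 3, and were not rescaled. All 12 monocyte and macrophage markers were highest in pre-AML 3. The 11 of them that were low in controls summed to 388 FPKM there, against 5.48 and 8.38 in pre-AML 1 and 2 and 0.45 to 1.15 in controls. All 12, with Lyz2, summed to 3480 FPKM there, 2489 and 2342 in pre-AML 1 and 2, and 2385 to 2616 in controls. All 9 B cell markers were likewise highest in pre-AML 3, with a sum of 300 FPKM against 1.06 to 26.2 in the other pre-AML libraries. Of 10 T and NK cell markers, 8 were highest in pre-AML 3. The 8 of this list that were low in controls, and were picked by that, summed to 9.47, 5.91 and 14.6 FPKM in pre-AML 1, 2 and 3 against 0.14 to 0.40 in controls. All 10, with Nkg7 and Ccl5, summed to 120, 112 and 109 FPKM in pre-AML 1, 2 and 3 against 82.7 to 114 in controls. Of the 10, 5 lay above all controls in each pre-AML library, as did 4 of the 12 monocyte and macrophage markers. So did 1 of 7 erythroid and 1 of 8 leukemic progenitor markers, and 0 of the platelet, neutrophil and B cell markers. The share was 6.14% over all tested genes, and that over genes too low for a test is not given. Of 9 neutrophil markers and 7 erythroid markers none was highest there, and of 8 leukemic progenitor markers 1 was, with Hoxa9, Hoxa10 and Myb listed at 0 in pre-AML 3. In such bulk RNA, fewer cells of one type and less RNA per cell cannot be told apart.

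The mean level of the members ran from 0.022 FPKM (Rpia) to 1344 FPKM (Taldo1), and a small set carried most of the signal. Taldo1, encoding transaldolase of the non-oxidative pentose phosphate arm, had the highest mean level and alone made up 43.5% of the summed FPKM of the members. Pkm (485 FPKM), Gapdh (381 FPKM), Aldoa (278 FPKM) and Slc2a3 (266 FPKM) followed, and these 5 genes held 89.2% of the sum. A further 8 genes lay between 10 and 100 FPKM, 7 between 1 and 10, and 11 under 1 FPKM. In this order Taldo1 stood clear of Pkm, since its lowest library (1129 FPKM) was above the highest Pkm library (522 FPKM). The ranges of Pkm and Gapdh overlapped (433 to 522 and 326 to 437 FPKM), as did those of Aldoa and Slc2a3. Spearman's correlation of the members' levels between any 2 libraries was 0.933 to 0.991 over 15 pairs of libraries, as a description over genes that share the same annotation lengths. The lengths matter for the order. With the length of the principal transcript in place of all exons, Taldo1 remained first (2374 FPKM) and Gapdh (1109 FPKM) came before Pkm (997 FPKM).

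**Figure D1:**
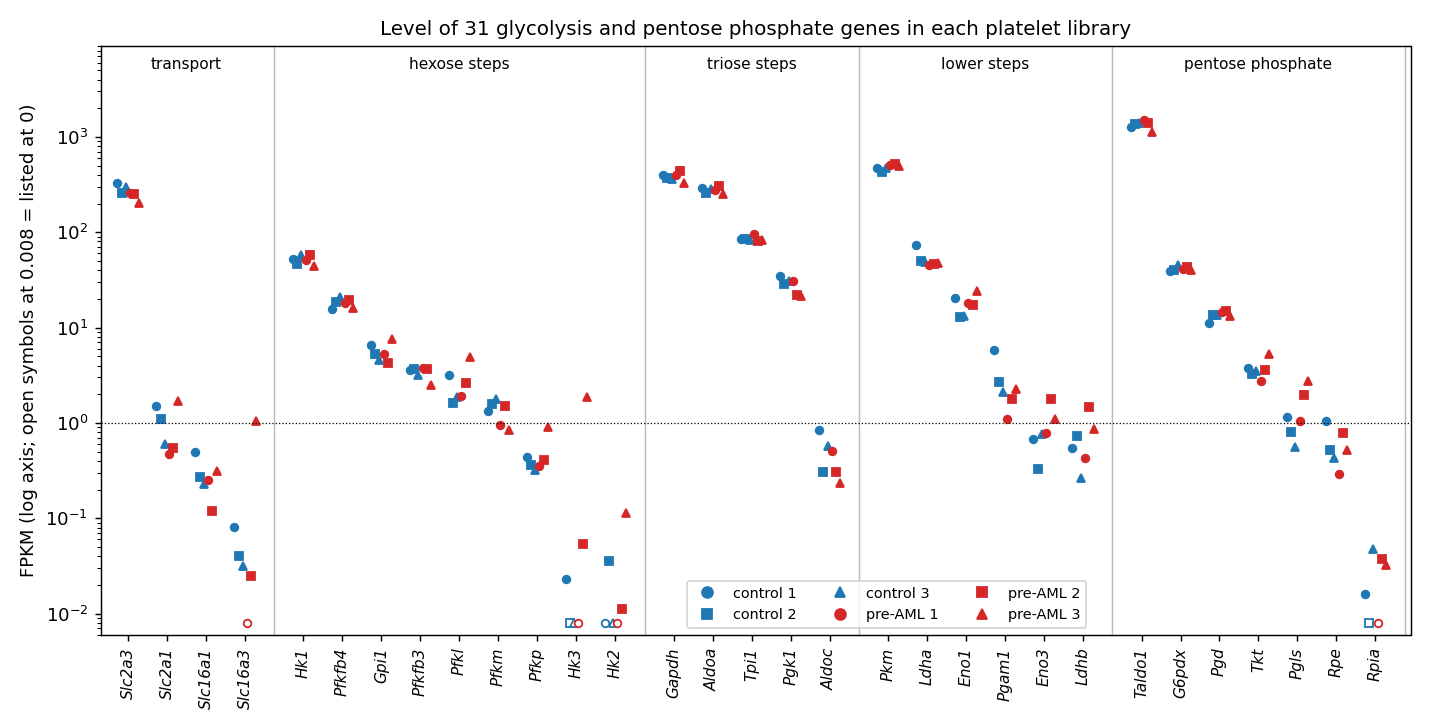
FPKM (log axis) of the 31 members in each of the 6 libraries, ordered by pathway step and by mean level, with controls in blue, pre-AML libraries in red and values listed at 0 as open symbols at the lower edge (dotted line, 1 FPKM). The symbols of one gene lie close together for abundant genes such as Taldo1 (1129 to 1505 FPKM), whereas Hk3 and Slc16a3 stand high in pre-AML 3 only (1.86 and 1.06 FPKM).

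The question put to the table was whether the platelet transcripts of glucose use differed between pre-AML and control. None of the 20 tested members passed an adjusted p under 0.05 in limma-trend with Benjamini-Hochberg adjustment over all 4412 genes, where 1 gene (0.0227%) was called. At an unadjusted p under 0.05, 1 member was higher in pre-AML libraries, beside 2.56% of all genes, and 0 were lower, beside 6.53% of all genes. On reads recovered from the FPKM values, limma-voom also called 0 members, with 2 at an unadjusted p under 0.05. The 3 pre-AML values lay wholly above the controls for 1 tested member (all genes 6.14%) and wholly below them for 2 (all genes 12.8%). These were Pkm above and Slc2a3 and Ldha below. After rescaling each library to the same total (TPM), 3 members lay above (Gapdh, Pkm and Pgd) and 0 below, and limma-voom values gave 3 above (Pkm, Pgd and Taldo1) and 0 below. The shares of all genes given here belong to the fit on deposited FPKM, and those for TPM and limma-voom are not given. With both, the median fold change of all genes was higher as well, so these counts are not read as a result about the members. The median log2 fold change of the members was 0.00092, beside -0.055 over all genes, with 10 members above and 10 below 0. The size of the fold change was under 0.1 on the log2 scale for 10 members, and their 95% intervals reached from -0.44 to 0.52, so that changes of this size could not be seen at the replicate spread of these libraries. The median standard error was 0.158.

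**Figure D2:**
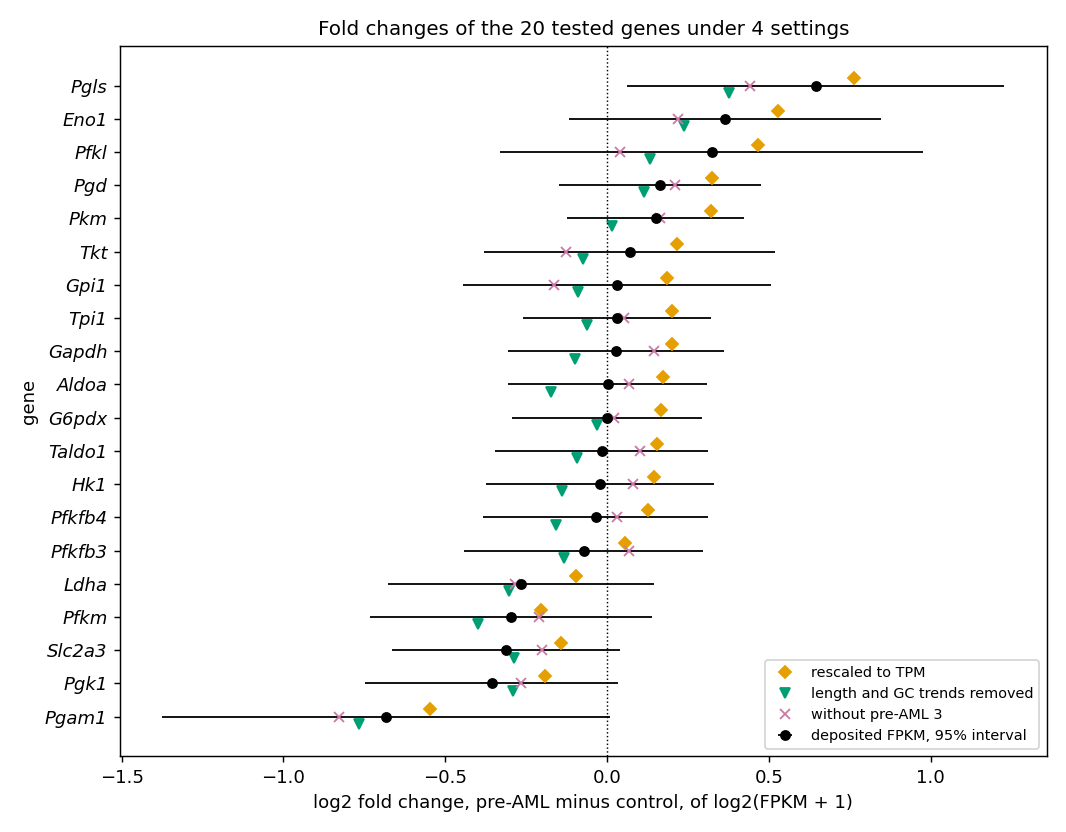
Log2 fold change of log2(FPKM + 1), pre-AML minus control, of the 20 tested members, with the 95% interval of the limma-trend fit (3 libraries per group), the value after rescaling to TPM, the value after removal of length and GC trends, and the value without pre-AML 3. The interval includes 0 for each gene other than Pgls (0.64, interval 0.06 to 1.23), and the TPM values lie to the right of the values from deposited FPKM for all 20 genes.

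Of the 4 transporters, Slc2a3 was tested. It read 327, 260 and 298 FPKM in the controls and 256, 254 and 203 FPKM in the pre-AML libraries. The groups did not overlap, although control 2 and pre-AML 1 were close. Its log2 fold change was -0.31 (SE 0.154), with an unadjusted p of 0.0757 and an adjusted p of 0.522 in limma-trend, and it was -0.20 without pre-AML 3. It was -0.14 with TPM, where the groups overlapped and the median of all genes moved from -0.055 to 0.081. GLUT1, encoded by Slc2a1, is the transporter of most proliferating cells. It was listed at 1.51, 1.09 and 0.60 FPKM in controls and at 0.47, 0.55 and 1.70 FPKM in pre-AML libraries, which put pre-AML 3 highest and pre-AML 1 lowest. Its share of the summed FPKM of Slc2a1 and Slc2a3 was 0.18% to 0.83% over the 6 libraries. The monocarboxylate transporters Slc16a1 and Slc16a3, which carry lactate across the membrane, were low. Slc16a1 lay between 0.12 and 0.50 FPKM, and Slc16a3 between 0 and 0.08 FPKM in 5 libraries and at 1.06 FPKM in pre-AML 3.

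Hexokinase transcripts were almost entirely Hk1. It read 51.9, 46.3 and 57.4 FPKM in controls and 51.6, 57.9 and 44.1 FPKM in pre-AML libraries, and the groups overlapped throughout (log2 fold change -0.02, SE 0.154). Hk1 made up 99.9% to 100% of the hexokinase FPKM in 5 libraries and 95.7% in pre-AML 3. Gpi1, the isomerase that forms fructose 6-phosphate, had means of 5.46 ± 1.02 and 5.69 ± 1.73 FPKM (SD, n = 3) in control and pre-AML libraries. Among the phosphofructokinase subunits, Pfkl read 3.21, 1.61 and 1.87 FPKM in controls and 1.90, 2.64 and 4.87 FPKM in pre-AML libraries. Its log2 fold change of 0.32 (SE 0.286) ranged from 0.04 without pre-AML 3 and 0.19 without control 2 to 0.53 without control 1 and 0.55 without pre-AML 1. The muscle subunit Pfkm had means of 1.56 ± 0.219 and 1.10 ± 0.357 FPKM, and the platelet subunit Pfkp had means of 0.375 ± 0.0599 and 0.553 ± 0.298 FPKM. Pfkp was below Pfkm in 5 libraries and above it in pre-AML 3 (0.896 and 0.847 FPKM), and with the length of the principal transcript their means over all libraries were nearly equal (1.54 for Pfkm, Pfkp slightly lower). Pfkp held 8.09% to 13.5% of the subunit FPKM, and Pfkm held 26.7% to 44.6% in controls and 12.8% to 33.1% in pre-AML libraries (exact two-sided permutation p = 0.3, where 3 against 3 allows 0.1 at best). Pfkfb4 and Pfkfb3, whose products set the level of the activator fructose 2,6-bisphosphate, had log2 fold changes of -0.04 (SE 0.152) and -0.07 (SE 0.162), and Pfkfb3 held 13.3% to 18.9% of their sum.

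Gapdh, Aldoa and Tpi1 of the triose phosphate steps varied little, with coefficients of variation of 5.54% to 9.88% over the 6 libraries. Gapdh, which couples oxidation to NADH formation, read 398, 368 and 363 FPKM in controls and 395, 437 and 326 FPKM in pre-AML libraries. Aldoa, the aldolase of muscle and blood cells, read 294, 256 and 284 FPKM in controls and 278, 304 and 254 FPKM in pre-AML libraries. Tpi1, triose phosphate isomerase, read 84.2, 85.9 and 83.6 FPKM in controls and 94.8, 81.3 and 83.7 FPKM in pre-AML libraries. The groups overlapped for all 3 genes, with log2 fold changes of 0.03 for Gapdh (SE 0.146), 0.0019 for Aldoa (SE 0.134) and 0.03 for Tpi1 (SE 0.127). Aldoa made up 99.7% to 99.9% of the summed FPKM of Aldoa and Aldoc, the brain isozyme, which had group means of 0.569 and 0.349 FPKM. Pgk1, the first ATP-forming kinase, differed more. It read 34.7, 28.7 and 31.1 FPKM in controls and 30.6, 21.98 and 21.4 FPKM in pre-AML libraries, with pre-AML 1 inside the control range. Its log2 fold change was -0.36 (SE 0.171), with an unadjusted p of 0.0690 and an adjusted p of 0.522 in limma-trend.

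Among the lower steps, Pgam1, phosphoglycerate mutase, had the largest coefficient of variation of the tested members (63.1% over the 6 libraries). It read 5.85, 2.69 and 2.12 FPKM in controls and 1.10, 1.77 and 2.27 FPKM in pre-AML libraries. Control 1 was far above the rest, and pre-AML 3 was above control 3. Its log2 fold change was -0.68 (SE 0.302), the lowest among the members, with an unadjusted p of 0.0522 and an adjusted p of 0.522 in limma-trend. The fold change was -0.35 without control 1, -0.83 without pre-AML 3 and -0.77 after removal of length and GC trends. The recovered reads of Pgam1 were 136, 75 and 50 in controls and 29, 53 and 105 in pre-AML libraries. Eno1, enolase 1, read 20.5, 12.9 and 13.2 FPKM in controls and 18.2, 17.5 and 24.5 FPKM in pre-AML libraries, with control 1 inside the pre-AML range (log2 fold change 0.36, SE 0.211). The fold change was 0.57 without control 1, with an unadjusted p of 0.0188 and an adjusted p of 0.732 in limma-trend, and 0.22 without pre-AML 3. A near-identical copy, Eno1b, could share its reads. Eno1b read 5.47, 4.48 and 3.80 FPKM in controls and 1.18, 3.81 and 0.98 FPKM in pre-AML libraries, and its log2 fold change was -1.01 (SE 0.320), with an unadjusted p of 0.0126 and an adjusted p of 0.522 in limma-trend. The sum of both was 26.0, 17.4 and 17.0 FPKM in controls and 19.4, 21.3 and 25.5 FPKM in pre-AML libraries. These sums overlapped between groups (exact two-sided permutation p = 0.6, where 3 against 3 allows 0.1 at best). The exon lengths differ (5379 bases for Eno1, 1877 for Eno1b), so summed FPKM do not conserve reads that move between the copies. Eno1b gave whole reads in 1 library only, and sharing of reads was not tested. Eno3, the muscle enolase, was at or under 0.773 FPKM in controls and at 0.778, 1.79 and 1.11 FPKM in pre-AML libraries. It was not tested, and Eno1 kept 90.7% to 97.5% of the summed FPKM of Eno1 and Eno3.

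The groups were apart in opposite directions for pyruvate kinase (Pkm) and lactate dehydrogenase A (Ldha), and neither passed the test. Pkm read 476, 433 and 472 FPKM in controls and 507, 522 and 501 FPKM in pre-AML libraries, so that each pre-AML library was above each control. The log2 fold change was 0.15 (SE 0.120), with an unadjusted p of 0.244 and an adjusted p of 0.614 in limma-trend. After rescaling to TPM it was 0.32, with an unadjusted p of 0.0423 in limma-trend, and after removal of length and GC trends it was 0.02. Ldha read 73.6, 49.4 and 48.3 FPKM in controls and 45.6, 46.0 and 47.6 FPKM in pre-AML libraries. No pre-AML value reached the lowest control, although pre-AML 3 and control 3 were close, and control 1 was far above the other libraries. The log2 fold change of -0.27 (SE 0.180, adjusted p = 0.573 in limma-trend) was -0.07 without control 1, and with TPM the groups overlapped. Ldha, the isozyme that favours lactate formation, made up 96.9% to 99.4% of the summed FPKM of Ldha and Ldhb.

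**Figure D3:**
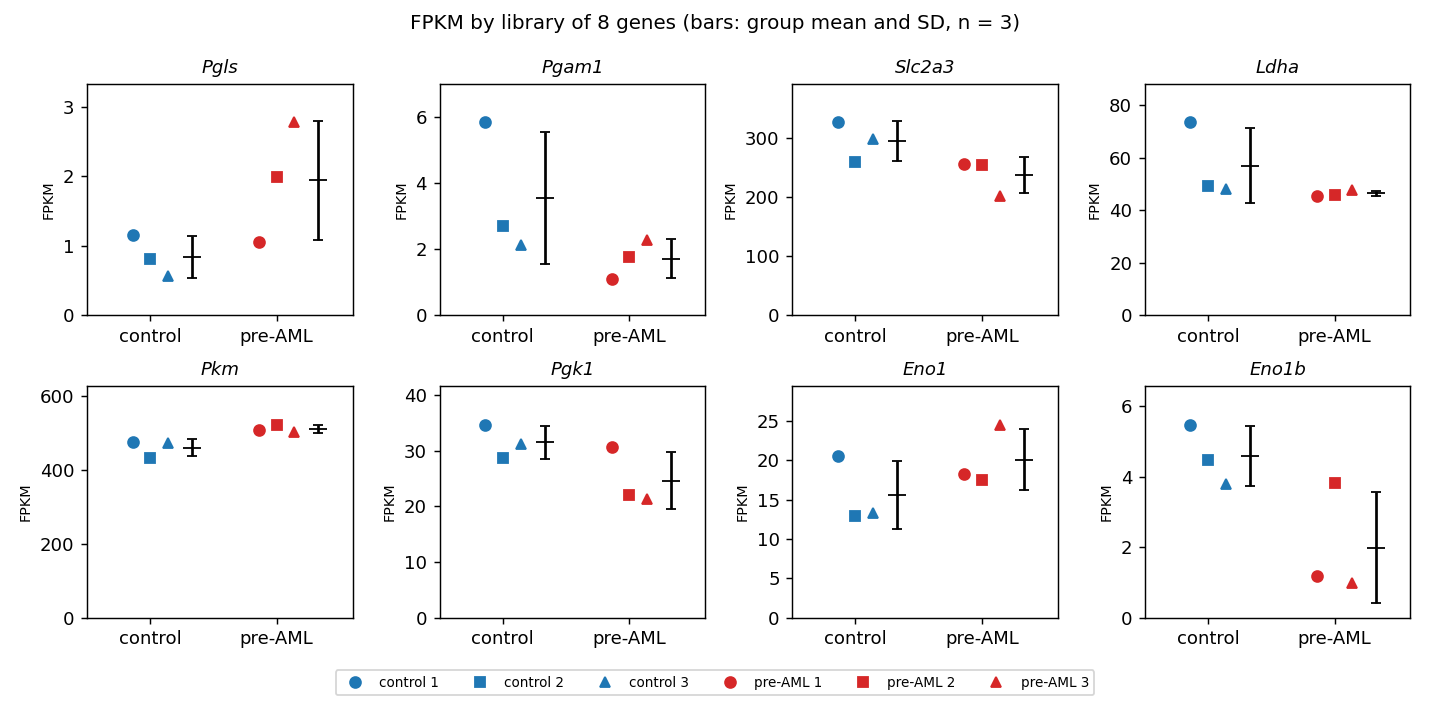
FPKM by library (linear axes from 0) of 7 members and of Eno1b, with controls in blue, pre-AML libraries in red and bars for the group mean and SD (n = 3). Control 1 is highest for Pgam1 (5.85 FPKM) and Ldha (73.6 FPKM), pre-AML 3 is highest for Pgls (2.77 FPKM) and Eno1 (24.5 FPKM), and the groups are apart without overlap for Slc2a3, Ldha and Pkm.

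The pentose phosphate genes were led by Taldo1, which read 1283, 1351 and 1409 FPKM in controls and 1505, 1388 and 1129 FPKM in pre-AML libraries. Pre-AML libraries 1 and 3 were the highest and the lowest of all 6 on deposited FPKM, whose total was lowest in pre-AML 3. The log2 fold change was -0.02 (SE 0.144), and it was 0.16 after rescaling to TPM. Transketolase, the partner enzyme encoded by Tkt, was at 3.53 ± 0.256 and 3.86 ± 1.27 FPKM (SD, n = 3). In the oxidative arm, G6pdx, the glucose 6-phosphate dehydrogenase that makes the first NADPH, read 39.3, 40.3 and 45.05 FPKM in controls and 40.9, 43.5 and 40.2 FPKM in pre-AML libraries. Its log2 fold change was -5.6e-05 (SE 0.128), with a 95% interval of -0.29 to 0.29. Pgd, which makes the second NADPH, read at 12.7 ± 1.37 and 14.3 ± 0.808 FPKM (log2 fold change 0.16, SE 0.136, and 0.08 without control 1). Pgls, the lactonase between them, was the member with an unadjusted p under 0.05. It read 1.15, 0.81 and 0.56 FPKM in controls and 1.06, 1.99 and 2.77 FPKM in pre-AML libraries, and pre-AML 1 was below control 1. The recovered reads behind these values were 51, 43 and 25 in controls and 53, 113 and 244 in pre-AML libraries. Its log2 fold change was 0.64 (SE 0.255), with an unadjusted p of 0.0340 and an adjusted p of 0.522 in limma-trend. Leaving out 1 library gave 0.44 (without pre-AML 3) to 0.88 (without pre-AML 1). Removal of length and GC trends gave 0.38, a pseudocount of 0.1 gave 1.07, and limma-voom gave 1.36. Rpe and Rpia, the epimerase and the isomerase of ribulose 5-phosphate, were at 0.29 to 1.04 FPKM and at 0 to 0.05 FPKM.

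GC content moved with these differences. Over the 20 members, Spearman's correlation between GC content and log2 fold change was 0.64, and it was 0.58 over 4397 tested genes with a length and GC content, both as descriptions over genes. Pgls had the highest GC content of the tested members at 61.1%, and Pgk1 (48.7%) and Slc2a3 (49.0%) had the lowest. The median log2 fold change of all tested genes was -0.31 in the decile of genes with the lowest GC content and 0.18 in the decile with the highest. The correlation of each library's deviations with GC content was -0.41 to -0.32 in controls and -0.04, 0.32 and 0.51 in pre-AML 1, 2 and 3. The part of GC content in the members' fold changes was not tested beyond the fit with its trend removed, in which the median of the members was -0.097. In that fit Slc2a3 was at -0.29 and Pgk1 at -0.29, beside -0.31 and -0.36 in the main fit. Pgls was at 0.38, beside 0.64.

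**Figure D4:**
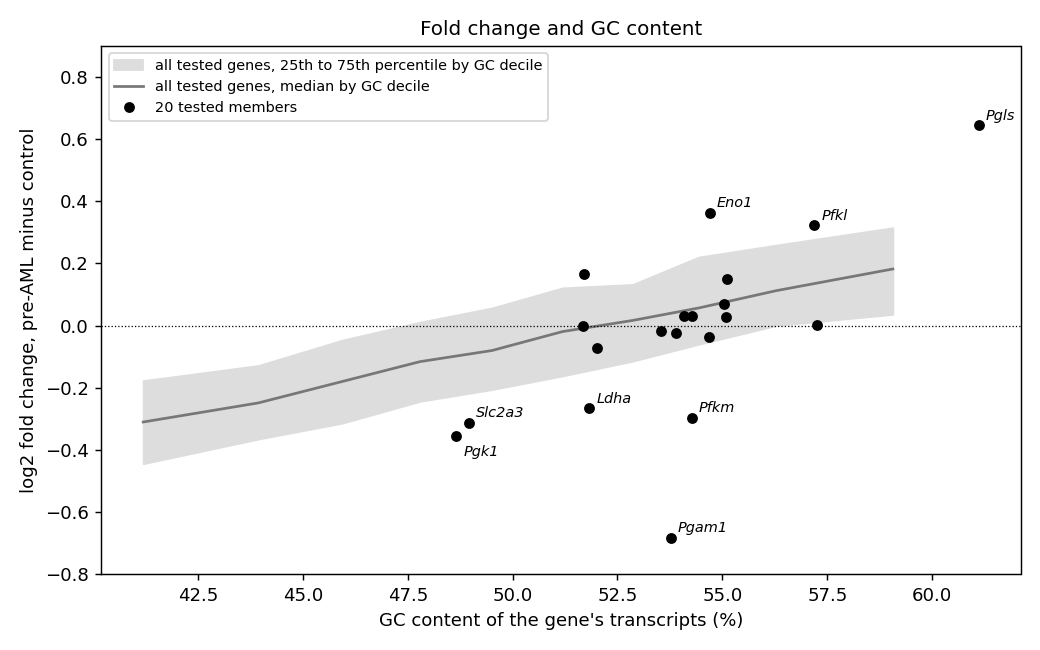
Log2 fold change (pre-AML minus control) against the GC content of the transcripts for the 20 tested members (points), over the median (line) and the 25th to 75th percentile (grey) of all tested genes by decile of GC content. The line climbs from -0.31 to 0.18, Pgls lies at the high end (61.1% GC, 0.64), and Pgk1 and Slc2a3 lie at the low end.

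Several low isozymes were highest in pre-AML 3. Hk3, the hexokinase of myeloid cells, read 1.86 FPKM there on 160 reads, whereas the other 5 libraries held 0 to 3 reads. Slc16a3 read 1.06 FPKM on 131 reads, whereas the others held 0 to 5. Hk2 had 16 reads in pre-AML 3 and 0 to 3 elsewhere, and Pfkp read 0.896 FPKM there against 0.320 to 0.439 in the others. With Slc2a1, 5 of the 11 untested members were highest in pre-AML 3. This was near the share of all untested genes, of which 43.2% were highest in that library. Hk3 held 4.04% of the hexokinase FPKM in pre-AML 3 and at most 0.093% elsewhere. Slc16a1 was below Slc16a3 in pre-AML 3 only, with a share of 22.7% of their sum against 82.8% to 100% in the other 5 libraries. The same library held the markers of monocytes and B cells given above, and their part in these values was not tested. Among the tested members, 5 were highest in pre-AML 3 and 8 were lowest, and over all tested genes these shares were 18.7% and 43.8%. These ranks are on deposited FPKM, whose total was lowest in pre-AML 3.

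**Figure D5:**
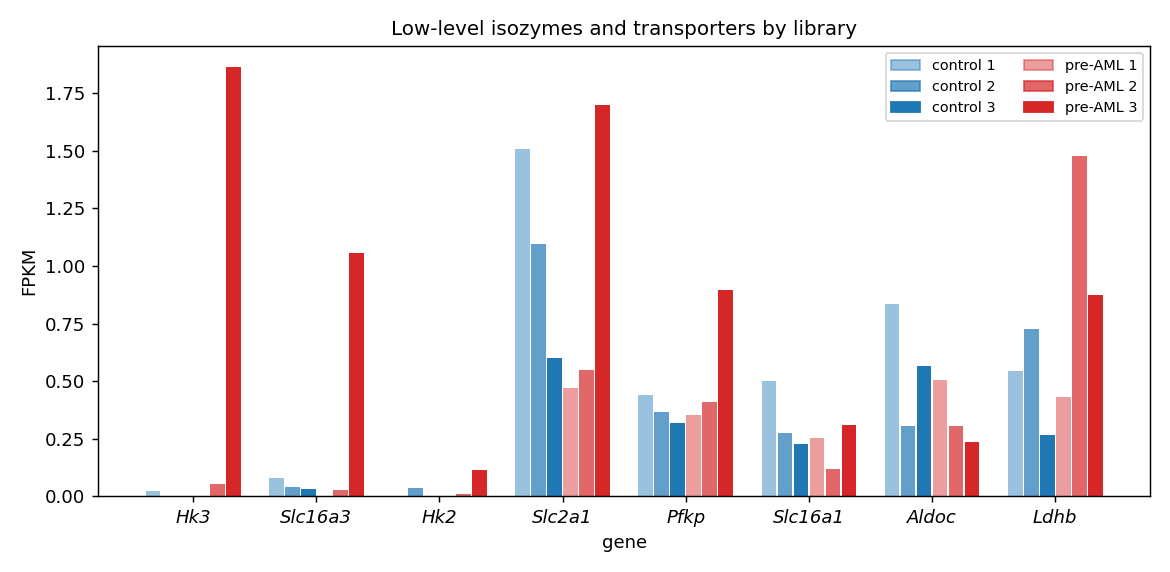
FPKM (bars from 0) of 8 low-level members in each library, with controls in shades of blue and pre-AML libraries in shades of red. Hk3, Slc16a3, Hk2, Slc2a1 and Pfkp are highest in pre-AML 3, whereas Slc16a1 and Aldoc are highest in control 1 and Ldhb in pre-AML 2.

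The members together summed to 3140, 2985 and 3159 FPKM in controls and to 3277, 3232 and 2738 FPKM in pre-AML libraries. As a share of all FPKM in a library this was 0.580%, 0.573% and 0.612% in controls and 0.615%, 0.635% and 0.728% in pre-AML libraries. The sum was lowest and the share highest in pre-AML 3, whose total FPKM was lowest.

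Neighbouring pathway genes were read from a list of 72 names, of which 59 had a row and 22 were tested. None passed an adjusted p under 0.05 in limma-trend, and at an unadjusted p under 0.05 there were 0 higher (all genes 2.56%) and 1 lower (Eno1b, all genes 6.53%). Their median log2 fold change was -0.13. Values lay wholly above the controls for 1 gene (all genes 6.14%), Pgm2, a phosphoglucomutase, and wholly below them for 2 (all genes 12.8%). These were Mpc2, a subunit of the mitochondrial pyruvate carrier, and Pdk1, a kinase that inhibits pyruvate dehydrogenase. Pdk1 read 4.93, 3.98 and 4.59 FPKM in controls and 3.61, 3.56 and 3.11 FPKM in pre-AML libraries (log2 fold change -0.31, unadjusted p = 0.0526, adjusted p = 0.522 in limma-trend). By mean FPKM over all 6 libraries, the most abundant tested genes of the 5 groups were Bsg, the chaperone of the lactate transporters, with means of 187 ± 14.7 and 174 ± 11.7 FPKM, Pygb, the brain glycogen phosphorylase, with 51.4 ± 7.66 and 49.1 ± 4.89 FPKM, Pdk3, with 6.79 ± 0.623 and 5.39 ± 1.91 FPKM (Mpc1, with 5.18 and 5.58 FPKM, was higher in the pre-AML mean and with the length of the principal transcript), Eno1b among glycolytic genes and Rbks among pentose phosphate genes (1.08 FPKM, beside 1.04 for Idnk). Slc2a6, encoding the transporter GLUT6, was listed at 4.06 FPKM in pre-AML 3 and at 0 to 0.03 FPKM elsewhere. That library also held the monocyte and B cell markers given above, and their part in this value was not tested.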

How the data were processed

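RNA of platelets from 3 control and 3 pre-AML libraries had been made into cDNA by SMART-Seq2 and Nextera XT. Per the labels and methods, the authors used STAR for alignment to mm10, and DESeq2. The values they deposited were FPKM of 14975 genes, and the counting program and annotation are not given in the sources used here.

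Gene lengths and GC content were taken from the exons of GENCODE M21. The FPKM values times length gave whole reads for 84.4% to 86.0% of values under 50 reads in a library (tolerance 0.05 reads), and for 28 of the 31 members in all 6 libraries (not Pfkl, Tkt and Pfkfb4, whose reads are approximate). The library size implied by the FPKM values, divided by the recovered reads, was 1.31 for pre-AML 3 and 0.983 to 1.01 for the others. Groups were compared by limma-trend (limma 3.58.1, R 4.3.3) on log2(FPKM + 1) for genes whose mean reached 1 FPKM, with Benjamini-Hochberg adjustment over all genes tested and a threshold of 0.05, and fold changes on this scale understate those of low genes. Eno1 was set against Eno1 and Eno3 only. Shares of isozymes were compared by exact permutation (scipy 1.17.1). The fit was also run on simulated data with large changes and a spread taken from the controls. These data had no GC trend and no library apart from the rest. They therefore say nothing about changes as small as those of the members.

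Members given by library were the 10 most abundant, those with an unadjusted p under 0.05 or without overlap, and the leading isozymes. Further genes that the report singles out (Pgam1 and the low isozymes among them) were chosen after their values were seen. The members and lists were chosen with earlier results of these data known. Alternatives were other pseudocounts, filters, scalings, models, a replicate block, removal of length and GC trends, and each library left out. Replicate numbers did not pair the libraries. Intervals cover the spread between libraries, and read numbers carry counting error as well.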

Additional observations from a re-analysis of the deposited data

How the results depend on the processing

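No member passed an adjusted p under 0.05 in any of 15 alternative fits, where the lowest adjusted p was 0.192, and the sign of the fold change was kept in 256 of 300 pairs of member and fit and never turned for 10 members. The limma-voom fit on recovered reads was chosen after seeing the data.

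The number of genes called in the whole table, 1 in the report, was 0 with no filter, with TPM scaling and with limma-voom, 2 with a filter of 1 FPKM in 3 libraries and with array weights, and 0 to 2 when 1 library was left out (0 without control 1, control 3 or pre-AML 1, and 2 without pre-AML 3). Members past an unadjusted p, 1 in the report, numbered 2 with a pseudocount of 0.1, with the filter in 3 libraries, with TPM, with quantile normalization and with limma-voom, 3 with array weights, and 0 to 2 without 1 library (0 without control 2 or pre-AML 2, and 2 without control 1 or pre-AML 1). With the replicate block the number was 0. Correlations of same-numbered deviations were -0.04, -0.12 and -0.17, which cannot exclude pairing, since pre-AML 3 dominates the deviations of its group. Members without overlap, 3 in the report, numbered 4 to 7 without 1 library (7 without control 1, 6 without pre-AML 3, and 5 without control 2 or pre-AML 1), where fewer values have to be apart. The number was 3 with TPM (Gapdh, Pkm and Pgd, all higher) and with limma-voom (Pkm, Pgd and Taldo1, all higher), 3 without length and GC trends (Slc2a3, Pgam1 and Ldha, all lower) and 2 with quantile normalization (Pgam1 lower, Pgd higher). Shares of all genes under these alternatives are not given here. The members' median, 0.00092 in the report, was 0.17 with TPM, -0.097 without length and GC trends, 0.14 with limma-voom and -0.047 to 0.047 without 1 library, while the median of all genes moved from -0.055 to 0.081 with TPM and 0.079 with limma-voom.

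Reversed log2 fold changes were, with TPM, Hk1 0.15, Pfkfb3 0.056, Pfkfb4 0.13, G6pdx 0.17 and Taldo1 0.16. With quantile normalization they were Hk1 0.076, Pfkfb4 0.032, G6pdx 0.083 and Taldo1 0.038. With array weights they were Hk1 0.13, Gpi1 -0.20, Pfkfb3 0.045, Pfkfb4 0.030, Tpi1 -0.015, G6pdx 0.044, Tkt -0.0043 and Taldo1 0.050. Without length and GC trends they were Gpi1 -0.089, Aldoa -0.17, Tpi1 -0.063, Gapdh -0.10 and Tkt -0.073. With limma-voom they were Hk1 0.12, Pfkfb3 0.034, Pfkfb4 0.10, G6pdx 0.14 and Taldo1 0.12. With 1 library left out, the ranges of log2 fold changes that turned were Hk1 -0.11 to 0.079, Gpi1 -0.16 to 0.19, Pfkfb3 -0.15 to 0.068, Pfkfb4 -0.14 to 0.059, Aldoa -0.063 to 0.068, Tpi1 -0.035 to 0.074, Gapdh -0.066 to 0.14, G6pdx -0.038 to 0.058, Tkt -0.13 to 0.24 and Taldo1 -0.10 to 0.10. Differences of isozyme shares in percentage points ranged from -0.16 (without pre-AML 3) to 0.16 for Slc2a1, from -34.3 to 4.32 (without pre-AML 3) for Slc16a1 and from -2.10 to 0.70 (without control 1) for Pfkfb3, and 3 libraries against 3 allow an exact p of 0.1 at best. The cause was not tested.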
